A study of Mus musculus with 8 samples.

Results

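The Shank3 locus of the mouse was examined in chromatin of the hippocampus, over a window of 75001 bp of chromosome 15 (build mm9) that begins 10051 bp before the first listed region in it. Its members were chosen by position alone, and 2 of the 11304 deposited open regions overlapped this window, together with 270 entries of the 8 peak lists. The assay was Sono-seq: fixed chromatin is sheared by sonication and its DNA sequenced with no immunoprecipitation step, and easily sheared, open chromatin gives more reads. Each library came from 1 male C57BL/6J mouse, aged 2 months and handled for 3 days. The 4 conditioned mice received a single foot shock (2 s, 1.5 mA) in a chamber, which is contextual fear conditioning, and their hippocampus was taken 30 min later. The 4 control mice were only handled, and their tissue was taken at the matching hour. As the labels describe separate animals, p-values measure the spread between mice together with that of library preparation. Any spread between experiment days is included too, as the labels do not tie libraries to days.

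Shank3 encodes a scaffold protein of the postsynaptic density, the protein layer under excitatory synapses that ties glutamate receptors to the actin cytoskeleton. Loss of 1 copy of the human gene is the main cause of Phelan-McDermid syndrome, a disorder with intellectual disability and autism. The gene is known for internal promoters in addition to the one at its 5′ end, from which transcripts start that encode shorter forms of the protein. RefSeq lists 12 Shank3 transcripts over 67249 bp (build GRCm38.p6), between C230037L18Rik on the 5′ side and Gm36221 and Acr on the 3′ side. No annotation of mm9 was used here, so no open region could be assigned to an exon, an intron or a numbered promoter. Because whole hippocampus was used, an open site in fewer cells and a less open site in all cells cannot be told apart.

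The 5′ promoter of Shank3 is shown because it gives the base composition of the sequence at which the long transcript starts. It comes from RefSeq at chr15:89499358-89499657 on GRCm38.p6, plus strand, a build whose positions cannot be set against those of the open regions. The entry runs from 250 bases before to 50 bases after the start, and capitals mark the GC box GGGCGG and the motif GCGTGGGCG, an Egr-type site, each read on either strand.
Shank3 promoter: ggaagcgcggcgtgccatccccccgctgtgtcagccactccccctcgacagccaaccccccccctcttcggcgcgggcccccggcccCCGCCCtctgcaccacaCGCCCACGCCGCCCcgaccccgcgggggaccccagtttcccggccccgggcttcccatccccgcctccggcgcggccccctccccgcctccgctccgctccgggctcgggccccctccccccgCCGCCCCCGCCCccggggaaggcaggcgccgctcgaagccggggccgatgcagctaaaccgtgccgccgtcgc
The promoter was 81% G or C and held 40 CpG dinucleotides, where the median of 32851 RefSeq promoters of the same length was 52.7% and 7. It lay above 99.3% of them in G and C content and above 96.1% in CpG number. The GC box was found 4 times, in its reverse form CCGCCC. Of all promoters, 35.7% held it at least once and 5.485% at least as often as Shank3. The Egr-type motif was found once, as CGCCCACGC at bases 105 to 113 of the entry, sharing its last base with the GC box at bases 113 to 118. Of all promoters, 0.612% held this motif. The cyclic AMP response element TGACGTCA, the TATA motif TATAAA and the E-box CACGTG did not occur in this promoter entry. They occurred in 1.79%, 13.6% and 7.15% of all promoters. These shares are over all promoters and were not matched for base composition. Such matches describe letters only and do not show binding.

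Libraries differed in how much of their sequencing reached ordinary regions, which bears on every value here. Total counts over the listed regions ranged from 36786183 to 83233550, but only 3.35% to 17.5% of them lay outside the 50 highest regions. The z score is the authors' measure of peak strength, and a peak that reached 30 was called strong. Control replicates 1 and 3 had a strong peak in 24.3% and 25.5% of all listed regions, against 58.6% to 97.7% in the other 6 libraries. Mean differences between the groups and the correlation of the regions are therefore also given without these 2 controls.

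The first of the Shank3 regions, called region 1, spanned 89330051 to 89331146, and the second, region 2, spanned 89378050 to 89378951 (chromosome 15, mm9). Shank3 is on the plus strand, so region 1 lies nearer the 5′ end and region 2 lies 47.9 kb further along the direction of transcription, centre to centre. The next listed regions on the chromosome were 45300 bp below region 1 and 43045 bp above region 2, so both stood alone within a stretch of otherwise unlisted chromatin. Of consecutive autosomal tiles of the same 75001 bp, 4.47% held 2 listed regions and 73.8% held none.

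Both regions were of ordinary strength for the list. The authors' mean z score was 54.2 for region 1 and 54.3 for region 2, against a median of 58.9 over all regions, which places them above 37.7% and 37.8% of the list. Each had 5 carriers, the deposited word for libraries with a strong peak, where the list ranges from 4 to 8 with a median of 6. Regions with 5 carriers had a median mean z of 54.3. Per kilobase of region, the mean level over the 8 libraries was 5.90 CPM (normalised read count, TMM-scaled) in region 1 and 5.98 CPM in region 2. The median of all regions was 8.03 CPM per kilobase, and 29.1% and 29.9% of the list lay below these levels.

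The carriers were not the same libraries. Region 1 had strong peaks in control replicates 2 and 4 and in conditioned replicates 1, 3 and 4. In region 2 they were found in control replicates 1 and 2 and again in conditioned replicates 1, 3 and 4. Both regions thus had 3 conditioned and 2 control carriers, a split shared by 17.2% of all regions. More conditioned than control carriers were found in 81.0% of all regions, so this direction is the usual one on the list. Conditioned replicate 2 and control replicate 3 carried neither region.

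**Figure D1:**
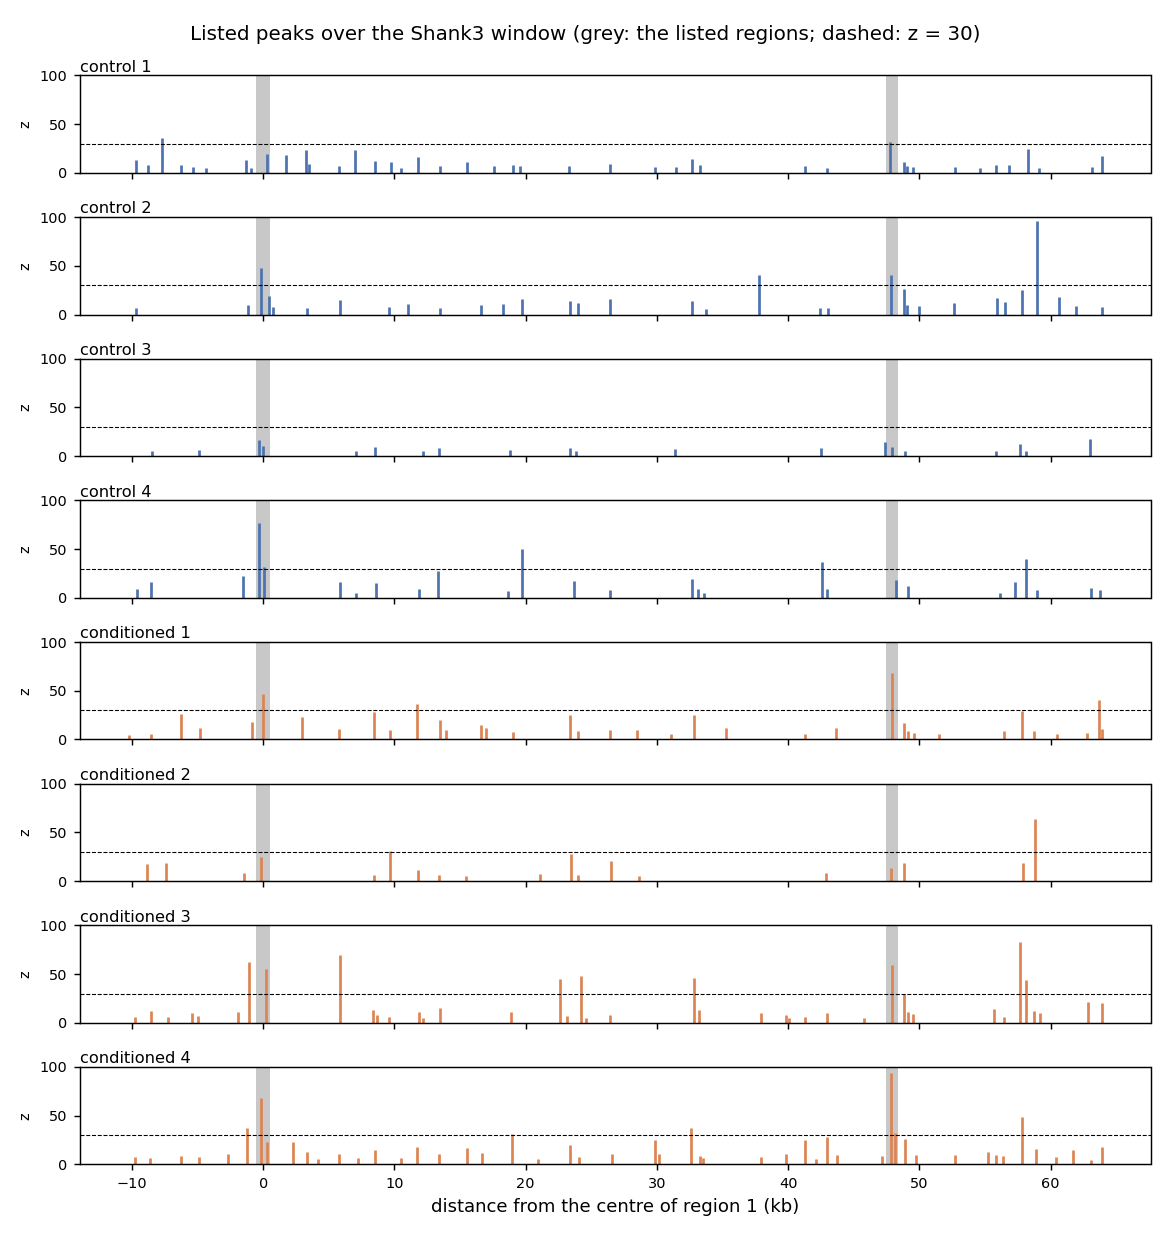
Every listed peak over the Shank3 window in each of the 8 libraries, as a bar at its distance in kb from the centre of region 1 (x axis) and of the height of its z score (y axis), in blue for control and orange for conditioned mice. Grey bands are the listed regions, and the dashed line marks z = 30. Bars cross the line in both bands in control 2 and conditioned 1, 3 and 4, and in neither in control 3 and conditioned 2.

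The read level of region 1 did not differ between conditioned and control mice beyond the spread of the libraries. Control replicates 1 to 4 had 87, 511, 86 and 732 reads there, which is 3.96, 5.53, 4.59 and 12.3 CPM. Conditioned replicates 1 to 4 had 489, 360, 681 and 875 reads, or 6.03, 8.18, 5.89 and 5.22 CPM. The groups overlapped, since control replicate 4 was above every conditioned library while the other 3 controls were below or within the conditioned range. Conditioned libraries averaged 6.33 ± 1.28 CPM and controls 6.60 ± 3.86 CPM (SD, n = 4 each). The log2 fold change was -0.065 (SE 0.47), with a 95% interval from -1.07 to 0.94, which is a 0.478-fold to 1.91-fold level. In edgeR's quasi-likelihood test over all 11304 regions the adjusted p was 0.989 (unadjusted p 0.892). Without control replicate 4 the estimate was 0.40, and without control replicates 1 and 3 it was -0.51.

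Region 2, the one further downstream, had a higher mean after conditioning, again within the spread of the libraries. Reads numbered 222, 359, 75 and 107 in control replicates 1 to 4, or 10.1, 3.89, 4.00 and 1.80 CPM. Conditioned replicates 1 to 4 had 650, 87, 678 and 1249 reads, or 8.02, 1.98, 5.86 and 7.46 CPM. Conditioned replicates 1, 3 and 4 were above 3 of the 4 controls, but control replicate 1 was the highest library of all and conditioned replicate 2 fell among the lowest. Conditioned libraries averaged 5.83 ± 2.73 CPM and controls 4.95 ± 3.59 CPM (SD, n = 4 each). The log2 fold change of 0.24 (SE 0.58) had a 95% interval from -1.0 to 1.49, or 0.500-fold to 2.80-fold, and an adjusted p of 0.959 in edgeR's test (unadjusted p 0.684). The estimate depended on single libraries, at 0.84 without control replicate 1, 0.53 without conditioned replicate 2 and -0.076 without control replicate 4. Without control replicates 1 and 3 together it was 1.02 (SE 0.61; edgeR adjusted p 0.644).

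**Figure D2:**
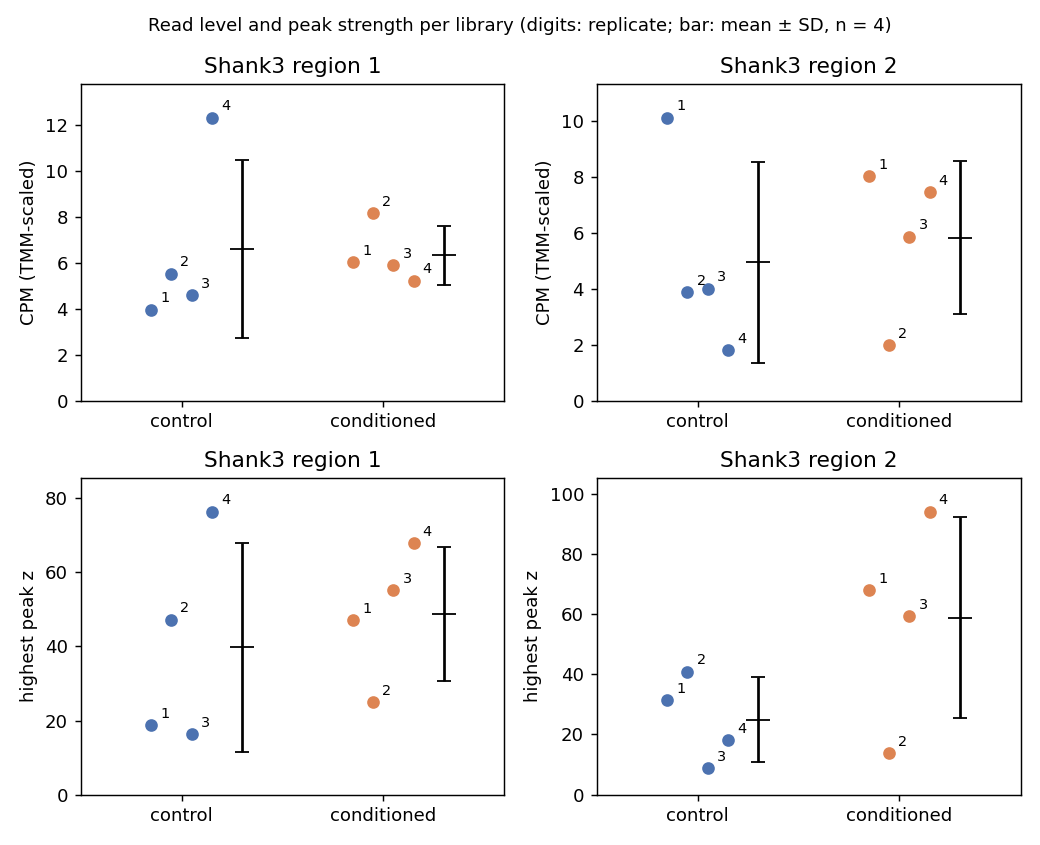
Read level (CPM, top) and highest peak z (bottom) of region 1 (left) and region 2 (right) in each library, with the replicate number beside each point and the mean ± SD (n = 4) as a black bar. Control and conditioned points overlap in all 4 panels. Control replicate 4 is highest for region 1 at 12.3 CPM, and control replicate 1 is highest for region 2 at 10.1 CPM.

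Neither of the Shank3 regions passed the test, nor did any other region of the list, since 0.00% of the 11304 regions had an edgeR adjusted p below 0.05. At unadjusted p below 0.05 there were 881 regions (7.79%), none of them in the Shank3 window. DESeq2's Wald test called 40 regions over the list, without either Shank3 region. Groups whose CPM did not overlap were found in 2.40% of all regions and in none of the Shank3 regions. The median log2 fold change of all regions was -0.05, with the 5th and 95th percentiles at -1.37 and 0.82. Region 1 ranked above 48.7% and region 2 above 71.3% of all regions by log2 fold change, so both lay in the broad middle of that distribution. The direction for region 1 depended on the scaling. With region totals alone in place of TMM factors, which moved the median of all regions to 0.75, region 1 had 0.55 and region 2 had 1.44. Relative to that median, region 1 was lower and region 2 higher, and neither passed (edgeR adjusted p 0.682 and 0.484).

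Peak strength gave a second readout of the same libraries, from the peak lists. It is not independent of the list, since a region is listed only where at least 4 libraries have a z of at least 30. The z scores compared here thus also took part in choosing the regions. At region 1 the controls, in the order of their replicate numbers, had a highest z of 18.8, 47.2, 16.4 and 76.4. The conditioned libraries had 47.1, 25.0, 55.2 and 67.8. The highest value again belonged to control replicate 4, and the groups overlapped. At region 2 it was 31.3, 40.9, 8.94 and 18.2 in control and 67.8, 13.8, 59.4 and 94.1 in conditioned libraries. Conditioned replicates 1, 3 and 4 were above all 4 controls at region 2, whereas conditioned replicate 2 was below 3 of them. These are z scores as listed, and this order changed once libraries were centred. Groups of centred values that did not overlap were found in 2.72% of all regions and at neither Shank3 region. Since the z of all regions differed between libraries, log2 z was centred on each library's median before limma was fitted over the list. On that centred scale control replicate 1 was the highest of the 8 libraries at region 2, at 0.58, with conditioned replicates 1, 4 and 3 next at 0.41, 0.15 and -0.11. The centred difference, conditioned minus control, was -0.33 (SE 0.33; 95% interval -1.04 to 0.38; limma adjusted p 0.990) at region 1. At region 2 it was 0.34 (SE 0.48; 95% interval -0.67 to 1.36; limma adjusted p 0.990). No region of the list passed this limma test either (0.00% at adjusted p below 0.05, and 501 regions or 4.43% at unadjusted p below 0.05, without the Shank3 regions). Without centring, the log2 differences were 0.50 at region 1 and 1.16 at region 2, and neither passed (limma adjusted p 0.529 and 0.305). The median of all regions was then 0.86, so region 1 was below it and region 2 above it. Without control replicates 1 and 3 the centred differences were -0.60 and 0.60.

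**Figure D3:**
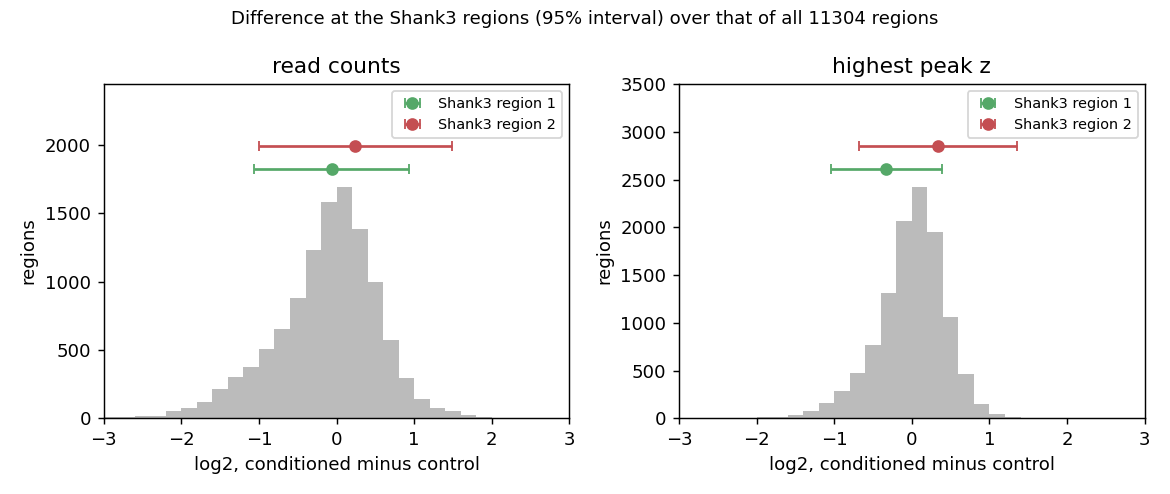
Difference between conditioned and control libraries on the log2 scale (x axis) for read counts (left) and for the highest peak z after centring (right). Grey bars count all 11304 regions (y axis), and points with bars are the Shank3 regions with their 95% intervals. The intervals of both regions include 0 in both panels, and the points lie within the bulk of all regions.

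The division of reads between the Shank3 regions does not depend on how libraries are scaled. Region 2 held 71.8%, 41.3%, 46.6% and 12.8% of the reads of both regions in control replicates 1 to 4. In conditioned replicates 1 to 4 it held 57.1%, 19.5%, 49.9% and 58.8%. The exact 95% interval of Clopper and Pearson was 2.12 to 7.95 percentage points wide on each side, for counting error alone and with reads that carry no molecular identifiers. The shares of the groups overlapped. Control replicate 4 and conditioned replicate 2 had the lowest shares and were also the libraries with the highest CPM in region 1. On average region 2 held 46.3% ± 18.3 in conditioned mice and 43.1% ± 24.2 in controls (SD, n = 4 each), and the difference was smaller than either SD. It turned to -6.92 percentage points without control replicate 4, -0.39 without conditioned replicate 1 and -0.97 without conditioned replicate 4. Without control replicates 1 and 3 the difference rose from 3.19 to 19.3 percentage points, against a single pair of controls that stood at 41.3% and 12.8%.

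Over the 8 libraries, log2 CPM of region 1 and of region 2 were inversely related, with Pearson's r of -0.81 (exact permutation p = 0.0123). Spearman's rho was -0.64 (exact permutation p = 0.0962). This was the only relation between regions that was tested, and it was not among the planned tests. The direction depended on the scaling, since r was 0.29 with region totals alone (exact permutation p = 0.478) and -0.69 with upper-quartile factors (exact permutation p = 0.0558). Leaving out the libraries farthest from the median of region 1, control replicates 1 and 4, gave r of -0.54 (n = 6, exact permutation p = 0.264). This choice narrows the range of region 1, which by itself can weaken r. It therefore cannot tell whether the relation rests on these libraries. Without control replicates 1 and 3, r was -0.84 (n = 6, exact permutation p = 0.0306). With the mean of each group removed it was -0.84 (exact permutation within groups, p = 0.0122). Among 2196 pairs of listed regions 40 to 60 kb apart on the same chromosome, the median r was 0.08 and 0.911% of pairs had a lower r than the Shank3 pair. These pairs share the same 8 libraries. The first principal component of all other regions took up 35.4% of their variance, with control replicate 1 at -1.08 and the other 7 libraries between -0.16 and 0.46. Region 1 followed this component with r = 0.71 and region 2 with r = -0.66 over the 8 libraries, given as a description with no test. The sign of the component was set so that r of region 1 was positive. Of the other regions, 52.9% had r above 0, and their median r was 0.06. The part of this component in the values of the Shank3 regions was not tested.

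**Figure D4:**
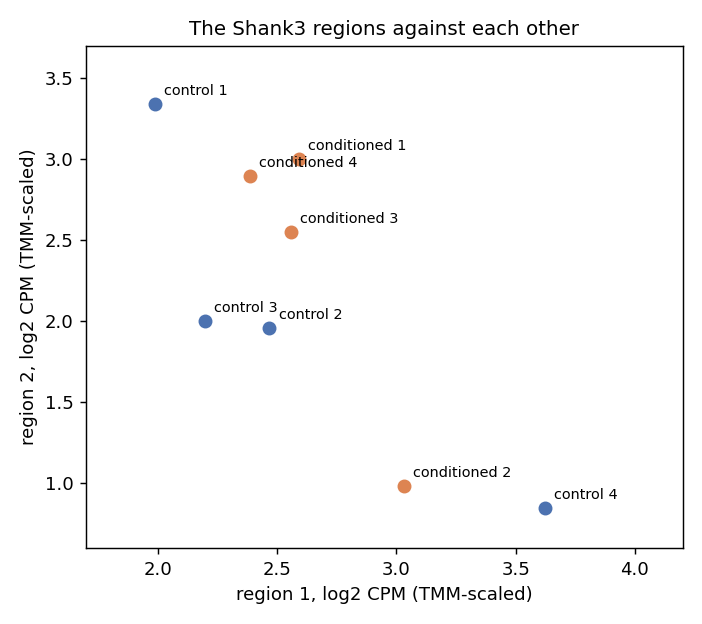
Log2 CPM of region 1 (x axis) against that of region 2 (y axis), 1 point per library, blue for control and orange for conditioned. Control 4 and conditioned 2 lie at the lower right, with the highest region 1 and the lowest region 2 values, and control 1 at the upper left.

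By a fixed rule, the regions elsewhere whose pattern over the 8 libraries was most like that of region 1, the Shank3 region with the higher mean CPM, were found by Pearson's r of log2 CPM. They lay on chromosome 4 at 107889798 to 107890980 (r = 0.98), chromosome 5 at 122278279 to 122279201 (r = 0.97) and chromosome 17 at 24624760 to 24626360 (r = 0.97). They were picked as the highest of 11302 values, so the size of r carries no further weight. Their own log2 fold changes were -0.68, -0.49 and 0.13, none of them past the test.

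Apart from the listed regions, the Shank3 window held many weak peaks and a few strong ones that few libraries shared. Controls, in the order of their replicate numbers, had 43, 33, 20 and 27 listed peaks, and conditioned libraries had 37, 19, 41 and 50. This came to 253 to 667 peaks per Mb in the window, against 153 to 398 per Mb over the autosomes. By number of entries the window was the denser in all 8 libraries. Control replicate 3 was the exception by other measures. It had 1.80% of the window covered by peaks against 2.55% of the autosomes, and 0 strong peaks per Mb against 8.02. Strong peaks numbered 2, 4, 0 and 5 in control and 4, 2, 9 and 7 in conditioned libraries. Conditioned libraries averaged 5.5 ± 3.11 strong peaks and controls 2.75 ± 2.22 (SD, n = 4 each), and the groups overlapped. Without control replicates 1 and 3 the difference fell from 2.75 to 1 peak. Peaks covered 4700 ± 2467 bp of the window after conditioning and 4500 ± 2474 bp in controls (SD, n = 4 each). That difference was smaller than either SD and its direction was not stable. Without control replicates 1 and 3 the controls averaged 5500 bp, more than the conditioned libraries, and without the 50 bp step added to each peak the means were 2862.5 bp after conditioning and 2962.5 bp in controls.

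Of the 33 strong peaks, 6 lay in region 1, 6 in region 2 and 21 elsewhere, at 15 separate places. At 11 of these places a single library had a strong peak, at 3 there were 2 libraries and at 1 there were 3, so none had the 4 carriers that the list begins with. By group, 9 places were strong in conditioned libraries alone, 4 in control libraries alone and 2 in both. The same split over the autosomes was not counted, so these numbers describe the window alone. Among all listed regions, 81.0% had more conditioned than control carriers. Over the autosomes, strong peaks numbered 5.28 to 23.95 per Mb in control and 10.7 to 26.9 per Mb in conditioned libraries, and the part of this difference in the counts by group was not tested.

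The unlisted place with the highest mean z over the libraries lay at 89388151 to 89388746, 57.9 kb downstream of the centre of region 1. Its highest z was 24.6, 25.4, 12.1 and 40.002 in the controls, by replicate number, and 29.5, 18.8, 83.4 and 48.6 in the conditioned libraries. All 8 libraries had a peak there, and conditioned replicate 1 was just under the z of 30 that would have raised its carriers to 4. For comparison, control replicate 1 counted as a carrier of region 2 at a z of 31.3, just above it. At 89389355 to 89389705, a further step downstream, control replicate 2 had a z of 95.7 and conditioned replicate 2 one of 64.1. The former was the highest z at any unlisted place, and both were the highest peaks of their libraries in the window, while the other libraries with a peak there had 8.18 to 24.6 and control replicate 3 had none. The value of 24.6 in control replicate 1 came from 1 broad peak that reached both places. Taking both places together, 5 libraries had a strong peak within less than 2 kb of unlisted chromatin, divided between neighbouring positions.

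A place just before region 1, at 89329101 to 89329601, was strong in conditioned replicates 3 and 4, with z of 62.5 and 37.4. The other conditioned libraries had 17.6 and 8.24 there, and the controls had 12.8, 10.1 and 22.0, with no peak in control replicate 3. Between the listed regions, the place at 89363051 to 89363396 was also strong in conditioned replicates 3 and 4, with z of 45.5 and 37.1. Conditioned replicate 1 had 25.5 and conditioned replicate 2 no peak, and the controls with a peak had 14.0 to 19.6. Unlisted places were picked by a z of at least 30, which only conditioned replicates 3 and 4 reached at both places. That the highest values there were conditioned follows from this choice and is no separate result. These z scores are not centred, and conditioned replicates 3 and 4 also had the highest median z over all listed regions. The part of this in the values was not tested. Conditioned replicate 2 was below the controls with a peak or had no peak.

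The 4 remaining named places had a strong peak in 1 library each. Conditioned replicate 3 had a z of 69.4 at 89336446 and of 47.6 at 89354796, and conditioned replicate 1 had 36.8 at 89342353 and 40.04 at 89394253. In the other libraries with a peak at these places, z ran from 6.32 to 20.5. Each of these strong entries was listed with equal start and end.

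**Figure D5:**
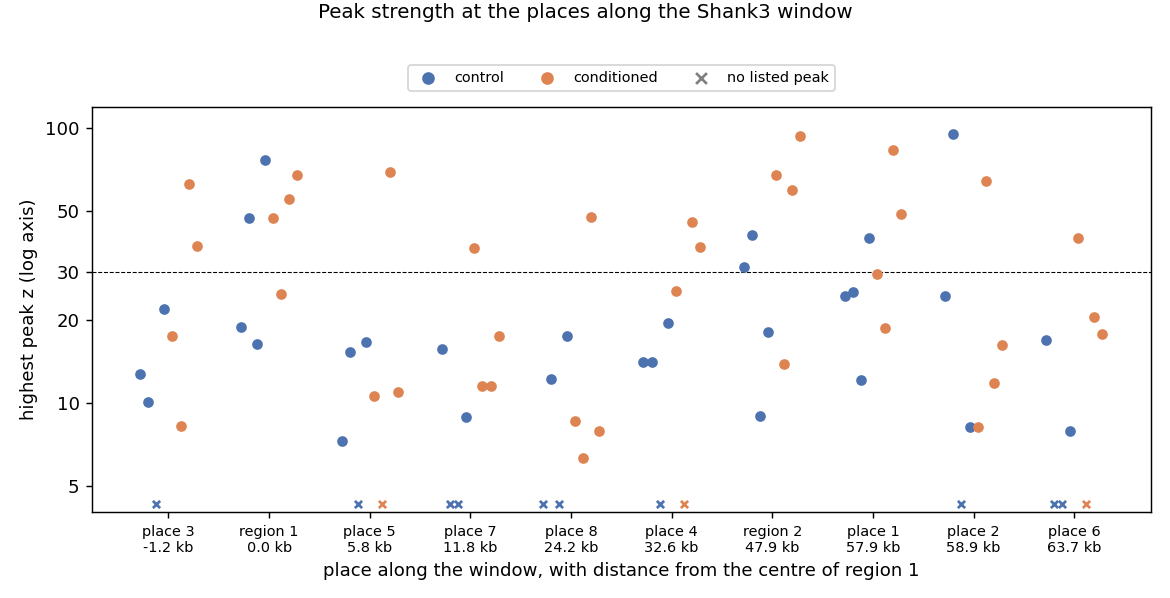
Highest peak z per library (y axis, log scale) at the listed regions and the 8 named unlisted places, in order along the window with their distance from the centre of region 1 in kb. Crosses mark libraries with no listed peak, and the dashed line is z = 30. At region 1 and region 2 5 libraries each lie above the line, at the place 57.9 kb away 3, and at every other place 1 or 2.

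Peaks of any z, weak or strong, were also compared by position. The window had more of them per Mb than the autosomes in all 8 libraries, and the part of this in the comparison was not tested. In tiles of 1000 bp, 4 of 75 in the window had a peak in all 8 libraries (5.33%), close to the 4.39% of autosomal tiles. Another 7 had one in 7 libraries (9.33%, against 5.06%). Those with 8 were the tile of region 1 from 89330000, the tiles from 89378000 and 89379000 at and just beyond region 2, and the tile from 89388000. The tiles with 7 libraries began at 89329000, 89339000, 89342000, 89354000, 89357000, 89373000 and 89389000. Only 12 tiles (16%) had no peak in any library, where 33.9% of autosomal tiles had none. The tile just beyond region 2 thus had a peak in as many libraries as the tiles of the listed regions. Conditioned replicate 2 had a z of 19.04 there, above its 13.8 in region 2, while control replicate 3 had 5.78 and conditioned replicate 3 had 29.4, both below their values in region 2.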

How the data were processed

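Reads were aligned with Bowtie2 to mm9, per the submitters' processing notes. How peaks were called, reads counted and duplicates handled is not stated in the labels. The authors deposited raw counts for 11304 regions in 8 libraries (0 value columns unused), a mean z score and number of carriers per region, and 1 peak list with a z score per library, whose scaling is not stated. In all 11304 regions the carriers equalled the libraries with an overlapping peak of z at least 30, the mean z equalled the mean of those peaks (within 0.001), and the region ran from 200 bp before the first to 200 bp after the last of them.

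Counts were tested with edgeR 4.0.16 (quasi-likelihood, TMM, group as the only term, two-sided, Benjamini-Hochberg over all regions) in R 4.3.3. The filterByExpr filter removed 0 regions. The log2 of the highest z, centred per library, was tested with limma 3.58.1, with 594 missing peaks set to the lowest listed z of 5.00. DESeq2 1.42.0 was an alternative. For covered length 50 bp were added to each peak, a step assumed here and not stated in the labels. Unlisted places are strong peaks merged within 500 bp and read 250 bp to either side.

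All regions of the window were named, and of unlisted places the 8 with the highest mean z. Members, lists and alternatives were chosen with earlier results of these data known. The list of postsynaptic genes needs an mm9 annotation and was not used here. The gene table is of another build, as 88 deposited regions lie past the final gene it lists for the same chromosome. Coordinates are printed as deposited and may differ by 1 from a browser.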

Additional observations from a re-analysis of the deposited data

Results flagged for a closer look

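Of 20 groups of 4 library values, 1 held a library set apart from the others by more than Dixon's critical value at the 5% level (gap to the nearest library over the range of the group), and chance flags about 1 in 20. The median z of the peaks listed in the Shank3 window was 13.8 in conditioned replicate 2, against 10.8 to 11.2 in the other conditioned libraries. That library also had the fewest peaks in the window, 19.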

How the results depend on the processing

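Neither Shank3 region passed the adjusted test in any of the 21 alternatives for counts (adjusted p 0.484 to 0.999) or the 13 for z (0.305 to 1.00). Chosen after seeing the data were the fits without control replicates 1 and 3 together and every alternative for the share of reads. The same holds for the correlation of the regions and every alternative for it. The log2 fold change of region 1, -0.065, turned to 0.024 with upper-quartile factors, 0.55 with region totals and 0.087 with the replicate block, and ran from -0.25 to 0.40 without 1 library. That of region 2 ran from -0.076 to 0.84 without 1 library, and was 0.72 and 0.71 with 1 and 2 factors of unwanted variation, 0.67 with limma voom and 0.30 with the replicate block. The z difference at region 1 turned to 0.50 without centring, where the median of all regions was 0.86. The cause was not tested. Regions called over the list went from 0 to 6 with totals, 40 with DESeq2 and, for z, 1 without centring and 1 with the replicate block, and stayed at 0 without any 1 library. The other count filters removed no region. Replicate numbers are shared, but the labels do not tie a number to a day. The deviations of same-numbered libraries from their group means were only weakly related, with r of 0.16, 0.048, -0.063 and 0.27. The block may therefore not pair mice. The correlation of the regions was 0.29 with totals, -0.69 with upper-quartile factors, and -0.88 to -0.69 without 1 library, where it lost significance without control replicate 4. The difference in strong peaks, 2.75, was 6 at z of at least 5, 8 at z of at least 10, and 1.58 to 3.92 without 1 library. That in covered length, between means of 4700 and 4500 bp, ran from -967 to 1067 bp without 1 library, and was -800 bp without control replicates 1 and 3 and -100 bp without the added step, and that in the share of reads from -6.92 to 12.8 points, without 1 library. Region 2 had 75 and 107 reads in control replicates 3 and 4 and 87 in conditioned replicate 2. Region 1 had 87 and 86 in control replicates 1 and 3. Such low counts add counting error to the spread between libraries.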
